A study of Mus musculus with 7 samples.

Results

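Coding footprints on 40 genes of mitosis were compared between skin epidermis of wild-type (WT) mice and of mice with a knockout (KO) of Pelo, the gene of the ribosome rescue factor Pelota. The genes were taken by symbol from a fixed list, which was chosen with earlier results of these data known. All 40 were found among 13047 distinct symbols in the deposited table, each on 1 transcript. Ribosome profiling sequences the stretch of mRNA that a ribosome covers, so a coding footprint count measures how many ribosomes were on that coding region. The footprint libraries number 2 KO (a transgenic knockout, per the design text) and 2 WT, called replicates 1 and 2. RNA-seq libraries of the same tissue (2 KO and 1 WT in the labels) were not analysed here, so more mRNA and more ribosomes per mRNA cannot be told apart, nor can more dividing cells and more footprints per dividing cell. The labels do not say which strain or age the mice were, what drives the knockout, or how many animals a library holds. The p-values therefore measure only the spread between these libraries, which may be technical.

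A dividing cell enters mitosis when cyclin-dependent kinase 1 is switched on by cyclins A and B, builds a spindle, attaches each chromosome at its kinetochore, and separates the chromosomes once the anaphase-promoting complex (APC/C), a ubiquitin ligase, has been activated. The genes for these steps are transcribed late in the cell cycle, and many carry a promoter element named the cell cycle genes homology region (CHR), which recruits MuvB complexes that repress them in resting cells and activate them in dividing cells. In epidermis most division takes place in the basal layer, and in growing hair follicles also in the hair matrix.

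The CHR letters are shown because they are a feature that most of the 40 genes share. The genes were listed by symbol, and whether known promoter elements played a part in choosing them is not stated. RefSeq promoter windows (GRCm38.p6, 250 bases before the annotated start and 50 bases from it) were at hand for 34 of the genes, 3 of them with 2 windows. TTTGAA or TTCGAA was searched on both strands (TTCGAA reads the same on both), and a gene was counted if any of its windows held a match. Of the 34 genes 27 held one (79.4%), against 16.0% of 8127 other tested genes with a window and 21.7% of all 27025 genes with a window. In 24 of the 34 (70.6%) a match began within 50 bases of the start, against 4.02% of the other tested genes. CCAAT, the NF-Y element, was searched on both strands too and stood in 28 of 34 (82.4%, against 42.0% of the other tested genes), and both elements stood in the same window in 25 (73.5% against 6.30%). A match is a run of letters, not a measured binding site. In the stretches below the match is in capitals, and the coordinates are those of the printed letters on the printed strand.
Cdc20, chr4:118437347-118437370, minus strand: cagttgggtTTTGAAggagccaat
Cdk1, chr10:69352913-69352936, minus strand: cgcggcgagTTTGAAactgctggc
Ccnb2, chr9:70421536-70421559, minus strand: ggcgcggtaTTTGAAtcgcggacc
Plk1, chr7:122159456-122159479, plus strand: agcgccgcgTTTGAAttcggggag
Ube2c, chr2:164769891-164769914, minus strand: ccgcccgcgTTTGAAttgcaaccc
Cenpa, chr5:30666893-30666916, plus strand: gggtgatttTTTGAActgctggcg
Bub1, chr2:127831831-127831854, minus strand: cgcggggaaTTCGAAtcgccggcg
With the annotated start as position 0, the match began at position -18 in Cdc20, -15 in Cdk1, 4 in Ccnb2, 30 in Plk1, 16 in Cenpa and 14 in Bub1. In Ube2c it lay on the strand opposite to the gene and covered positions -29 to -24. The 7 genes whose windows held no match were Birc5, Ccnb1, Cenpe, Mad2l1, Nek2, Nusap1 and Tacc3.

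The KO libraries totalled 4925876 (replicate 1) and 4521561 (replicate 2) coding footprints, the WT libraries 5282276 and 4221675. On Pelo itself 24 and 21 remained in KO, where WT had 101 and 61 (log2 change -1.65, SE 0.245, adjusted p = 0.000807). A count is listed in the table only where the coding region holds over 0.01 footprints per nt, and 37 of the 40 mitosis genes were listed in all 4 libraries and could be tested. The other 3, Bub1, Spag5 and Foxm1, were unlisted in 1 or both WT libraries and are described by bounds. Over the mitosis genes the median log2 ratio was 0.099 for KO replicate 1 over KO replicate 2 and -0.23 for WT replicate 1 over WT replicate 2. Higher in replicate 1 were 22 of 37 in KO and 10 of 37 in WT, so most were higher in WT replicate 2. Single genes could lie further apart than these medians, such as Aurka with 15 and 25 footprints in WT.

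All 37 tested mitosis genes carried more coding footprints in the knockout, by 1.65-fold for Ect2 to 3.53-fold for Ube2c. The median log2 change was 1.22, beside -0.02 over all 10953 genes tested. Both called higher and raised by more than 2-fold were 25 of the 37, against 7.28% of all genes tested. All 37 passed an adjusted p of 0.05 (edgeR's quasi-likelihood test, from 2.99e-05 to 0.0347), where 19.9% of all genes tested were called higher in KO and 19.1% lower. In all 37 both KO libraries lay above both WT libraries, which held for 35.4% of all genes tested. The median was 1.06 when libraries were scaled to their totals alone, where the median of all genes was -0.19. Under that scaling 34 of 37 passed, and the call was lost for Ect2 (0.55), Mad2l1 (0.61) and Cdca3 (0.63); all genes then split into 1523 higher and 2986 lower, against 2184 and 2093. DESeq2 called 31 of the 37 (13.6% of all genes tested higher), without Nek2, Aurkb, Ect2, Cenpa, Mad2l1 and Cdca3.

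**Figure D1:**
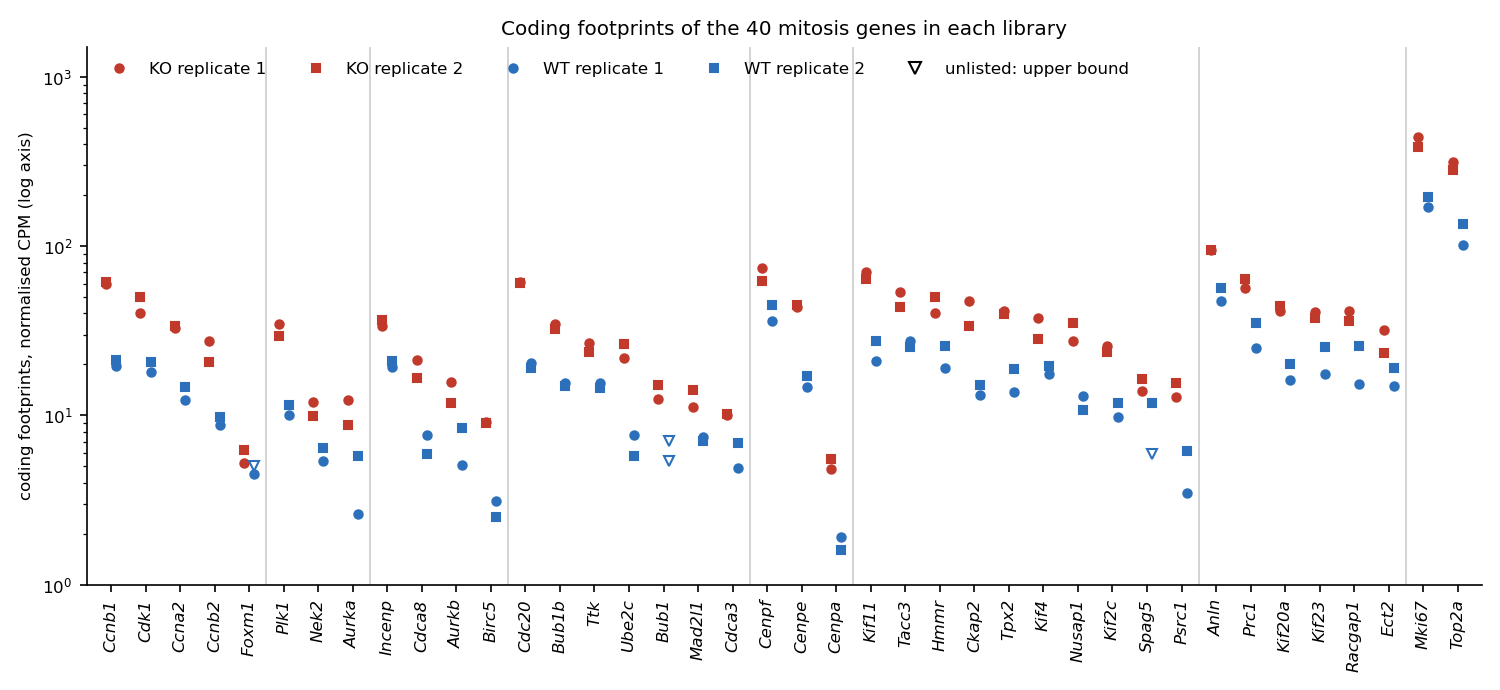
Coding footprints of the 40 mitosis genes in each of the 4 libraries, as normalised CPM on a log axis (circles replicate 1, squares replicate 2, red KO, blue WT); vertical lines separate the groups by role, and open triangles are upper bounds of unlisted WT values. In the 37 genes listed everywhere both red points lie above both blue points, and the levels span from about the 1.60 CPM of Cenpa in WT replicate 2 to the 438.6 CPM of Mki67 in KO replicate 1.

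As a share of all coding footprints, the 40 genes took 0.189% (95% Wilson interval 0.185 to 0.193) and 0.183% (0.179 to 0.187) in KO. In WT they took 0.0853% (0.0828 to 0.0878) and 0.0977% (0.0948 to 0.101). Both KO shares lay above both WT shares. The means were 0.186 ± 0.00422% and 0.0915 ± 0.0088% (SD, n = 2 each), a ratio of 2.03, with p = 0.33 in a two-sided exact permutation test, the smallest p that 2 against 2 libraries can give. The intervals reflect counting error within a library alone and leave out the spread between libraries. They treat each footprint as a separate draw, and since PCR copies of a footprint cannot be recognised, they may be too narrow.

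Among the genes of entry into mitosis, 4 of 4 tested rose. Ccnb1, which encodes cyclin B1, held 272 and 268 footprints in KO and 112 and 93 in WT, or 60.6 ± 1.61 against 20.4 ± 1.24 CPM (footprints scaled to the normalised library size, mean ± SD, n = 2). This was a 2.98-fold rise (log2 change 1.57, SE 0.137, adjusted p = 3.68e-05), more than any spread between replicates of a genotype. Its relative Ccnb2 held 126 and 90 footprints against 50 and 43 (1.39, SE 0.214). Cyclin A2, encoded by Ccna2, acts from S phase into early mitosis. Its mRNA held 151 and 146 footprints against 71 and 64 (1.31, SE 0.166). Cdk1, the kinase these cyclins activate, held 184 and 217 against 104 and 90 (1.22, SE 0.166, adjusted p = 0.000474). Foxm1, a transcription factor that activates late cell cycle genes, had the lowest bound of the 3 genes not listed everywhere, at least 1.20-fold. It held 24 and 27 footprints in KO and 26 in WT replicate 1, and its unlisted value in WT replicate 2 is at most 22. On the CPM scale that is 5.25 and 6.22 in KO against 4.54 and at most 5.04 in WT, and it was not tested.

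The kinases that act with Cdk1 rose as well. Plk1, a kinase of centrosome maturation and mitotic entry, held 158 and 127 footprints in KO and 58 and 50 in WT, a 2.97-fold rise (log2 change 1.57, SE 0.181, adjusted p = 0.000175). Aurka, the spindle pole kinase, held 56 and 38 against 15 and 25 (1.39, SE 0.358, adjusted p = 0.0135). Its groups did not overlap, but its counts were low and its WT libraries apart: the change was 0.87 and not called without WT replicate 1, and 2.00 without WT replicate 2. Nek2, a kinase of centrosome separation, held 55 and 43 against 31 and 28 (0.90, adjusted p = 0.0179), and lost its call without KO replicate 1 (0.76) or WT replicate 1 (0.77).

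The chromosomal passenger complex corrects faulty attachments at centromeres and later acts at the cell's midzone. All 4 of its genes rose. Birc5, which encodes survivin, held 42 and 39 footprints in KO and 18 and 11 in WT (1.66, SE 0.278, adjusted p = 0.00159). Cdca8, which encodes borealin, held 97 and 72 against 44 and 26 (1.45, SE 0.235). The scaffold gene Incenp moved less, with 154 and 159 against 111 and 92 (0.80, SE 0.151). Aurkb, the kinase of the complex, held 72 and 51 against 29 and 37 (1.06, SE 0.289, adjusted p = 0.0175). It lost its call without KO replicate 1 (0.83) or WT replicate 1 (0.69).

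Of the 7 genes of the spindle checkpoint and the APC/C, 6 were tested and all 6 rose, with a median log2 change of 0.97. Ube2c, the E2 enzyme that starts ubiquitin chains on APC/C substrates, held 100 and 114 footprints in KO and 44 and 25 in WT (1.82, SE 0.223, adjusted p = 0.000256). Cdc20, the activator that brings substrates to the APC/C, held 280 and 262 against 117 and 83 (1.62, SE 0.136, adjusted p = 2.99e-05), the lowest adjusted p among the 37. Of the spindle checkpoint genes, which hold Cdc20 in check until all chromosomes are attached, Bub1b held 158 and 140 against 89 and 65 (1.13, SE 0.157). Mad2l1 held 51 and 61 against 43 and 31 (0.78, SE 0.233, adjusted p = 0.0254). Ttk, the kinase Mps1, held 123 and 103 against 89 and 63 (0.75, SE 0.171). Cdca3, an APC/C substrate linked to degradation of Wee1, held 46 and 44 against 28 and 30 (0.80, SE 0.258, adjusted p = 0.0347). Mad2l1 lost its call without KO replicate 2 (0.61), WT replicate 1 (0.82) or WT replicate 2 (0.75). Cdca3 lost it without KO replicate 1 (0.81), KO replicate 2 (0.80) or WT replicate 1 (0.55). Bub1, the kinase that recruits checkpoint proteins to kinetochores, held 57 and 66 footprints in KO and was unlisted in both WT libraries, where an unlisted value is at most 31. Its footprints were thus at least 2.21-fold higher in KO.

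At the centromere and kinetochore 3 of 3 genes rose. Cenpa, the histone H3 variant that marks centromeres, held 22 and 24 footprints in KO and 11 and 7 in WT (1.52, SE 0.33, adjusted p = 0.00597). Cenpe, a kinesin that moves chromosomes to the spindle equator, held 200 and 196 against 84 and 75 (1.49, SE 0.154). Cenpf, a large protein of the outer kinetochore, held 340 and 271 against 207 and 196 (0.76, SE 0.153). The change of Cenpe was larger than that of Cenpf by more than either standard error, but the difference between the genes was not tested.

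Of 10 spindle genes 9 were tested, and all 9 rose, with a median log2 change of 1.33. Kif11, the motor that pushes spindle poles apart, held 323 and 278 footprints in KO and 120 and 121 in WT (1.48, SE 0.160, adjusted p = 0.000119). Tpx2, which activates and places Aurora A on the spindle, held 190 and 172 against 79 and 82 (1.33, SE 0.176). Psrc1 had the largest change of this group (1.59, SE 0.291), from 59 and 67 against 20 and 27 footprints. Ckap2 (1.53), Nusap1 (1.38), the microtubule depolymerase Kif2c (1.20) and Hmmr (1.03) followed, and the centrosomal microtubule protein Tacc3 (0.88) and the chromokinesin Kif4 (0.84) had the smallest changes. Spag5, which encodes astrin, held 64 and 71 footprints in KO and 52 in WT replicate 2. Its unlisted value in WT replicate 1 is at most 34, so the ratio of mean CPM is at least 1.70.

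The 6 cytokinesis genes rose with a median log2 change of 0.92. Kif20a, a kinesin of the central spindle, led the group (KO 189 and 191 footprints, WT 93 and 88; log2 change 1.24, SE 0.160). Prc1, which bundles the microtubules of the midzone, held 258 and 278 against 144 and 153 (1.01, SE 0.172). Anln, the scaffold anillin of the contractile ring, held 434 and 413 against 272 and 247 (0.87, SE 0.133, adjusted p = 0.000913). The centralspindlin genes Racgap1 (0.94) and Kif23 (0.90) lay between these. Ect2, the exchange factor that activates RhoA at the cleavage site, held 146 and 101 against 85 and 83 (0.72, SE 0.208, adjusted p = 0.022). It lost its call without KO replicate 1 (0.48) or WT replicate 1 (0.54).

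Mki67 and Top2a carried more footprints than any other of the 40 genes. Mki67, which encodes the proliferation marker Ki-67, held 2005 and 1662 footprints in KO and 970 and 852 in WT (1.18, SE 0.127, adjusted p = 0.000122). Top2a, the topoisomerase that untangles sister chromosomes, held 1433 and 1229 against 580 and 592 (1.34, SE 0.151, adjusted p = 0.000154). Together they made up 36.6% of the summed CPM of the 37 genes in KO and 35.1% in WT. Without them the summed CPM of the other 35 was 1252 and 1203 in KO and 510.9 and 602.0 in WT, so the 2 abundant genes do not set the direction of the sum.

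**Figure D2:**
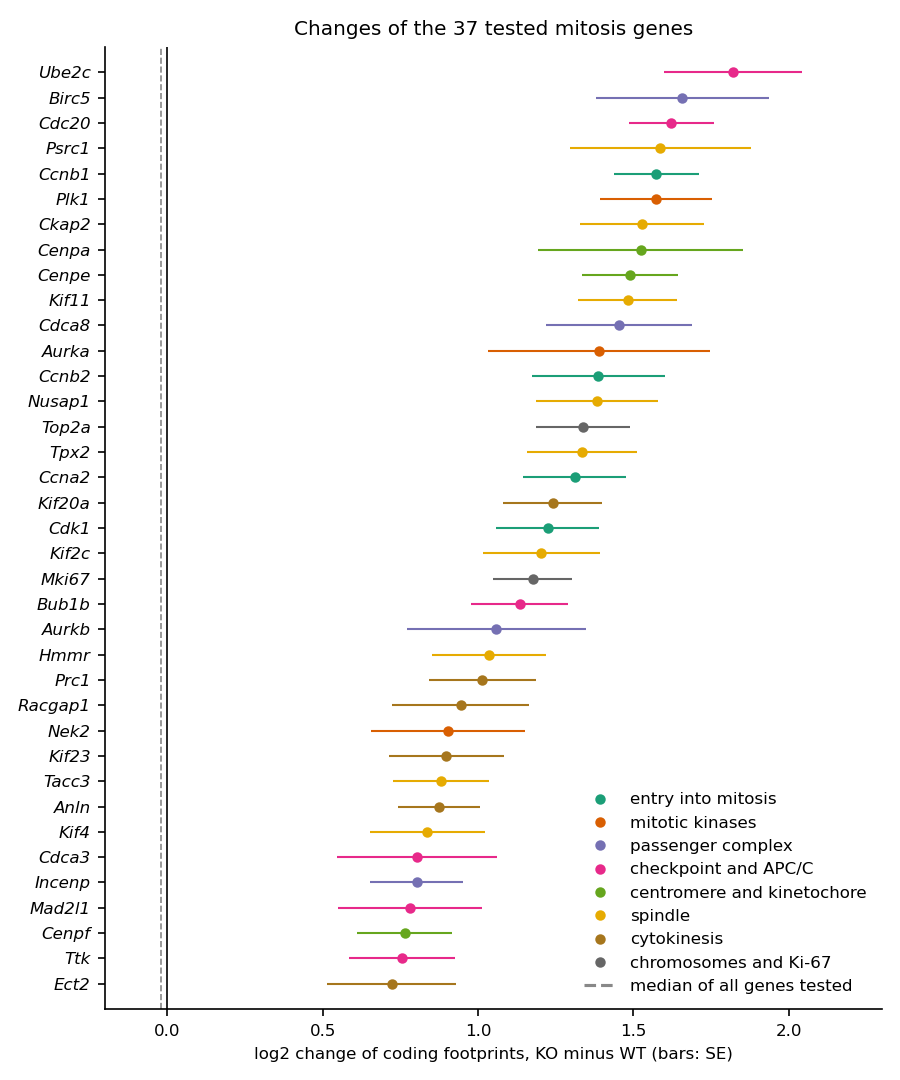
Log2 change of coding footprints (KO minus WT) with its standard error for each of the 37 tested mitosis genes, coloured by role; the dashed line is the median of all genes tested. All points lie right of 0, from 0.72 for Ect2 to 1.82 for Ube2c.

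The SD of the 37 log2 changes was 0.315, beside a median SE of 0.184 and a largest SE of 0.358, and neighbours in their order did not differ beyond their errors. Changes were somewhat larger in genes with low WT levels (Spearman's rho -0.352, Pearson's r -0.298 with log2 CPM in WT) and with short coding regions (rho -0.387 with length; r -0.353 with log2 length). These are descriptions across 37 genes that share the same 4 libraries, and the WT level enters both measures of the first pair. Compared per length of coding region, Top2a had the highest level in KO, with 65.9 ± 4.72 CPM per kb. Cdk1 (54.1 ± 8.28), Ube2c (50.2 ± 6.49), Ccnb1 (49.2 ± 1.30), Mki67 (43.4 ± 4.14) and Cdc20 (42.2 ± 0.422) followed. Neighbours in this order differed by less than the larger of their SDs, except Top2a from Cdk1 and Ccnb1 from Mki67. The lowest levels in KO were those of Foxm1 (2.59 ± 0.311), Spag5 (4.42 ± 0.486), Bub1 (4.44 ± 0.622) and Cenpe (6.05 ± 0.137). In WT Top2a (26.1 ± 5.36) and Cdk1 (23.2 ± 2.08 CPM per kb) were again the highest, and within each other's spread, while Ube2c, at 14.0 ± 2.88, lay below Prc1 (17.1 ± 3.97) and Anln (15.7 ± 1.94) but within their spread.

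**Figure D3:**
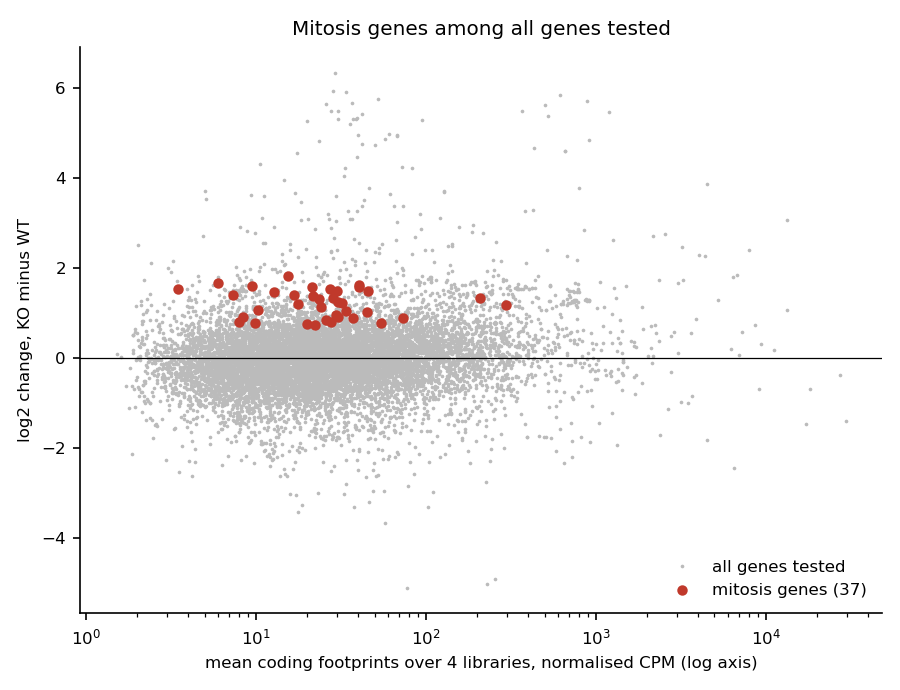
Log2 change (KO minus WT) against the mean level over the 4 libraries (normalised CPM, log axis) for all 10953 genes tested (grey) and the 37 mitosis genes (red). The red points form a band between 0.72 and 1.82 over their range of levels, inside the spread of all genes, of which 12.5% had a log2 change of at least that of Ect2.

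The median change of the mitosis genes was not larger in those with the CHR letters. The 25 tested mitosis genes with a CHR match had a median log2 change of 1.20, and the 7 without one 1.38; all 32 rose. Among other tested genes with a window, 20.3% of the 1302 with a match were called higher and 18.9% of the 6825 without, with median changes of -0.03 and -0.02. In the 9 lists of other cell cycle genes, 28 of 54 tested genes with a match were called higher (51.9%, median 0.54), and 30 of 86 without (34.9%, median 0.29). For the next 2 shares, CHR and CCAAT could lie in different windows of a gene, unlike the same-window count above. With both CHR and CCAAT 21 of 35 were called higher (60.0%, median 0.65). Outside the mitosis genes and the 9 lists, 18.6% of 571 tested genes with both were called higher and 21.9% lower (median -0.07). These are descriptions, and the differences were not tested.

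Other genes of the cell cycle moved less uniformly, and not every list in the same direction. Their list medians ran from -0.81 for CDK inhibitors to 0.61 for replication genes. The 9 lists cover 224 genes; 180 were tested, and 73 of these rose (40.6%, beside 19.9% of all genes), 10 fell and 97 were not called. Of the other kinetochore genes 7 of 23 rose and none fell (median 0.53), among them the shugoshin Sgol2 (1.14) and the Ndc80 complex genes Ndc80 (0.99) and Spc24 (0.96). Ndc80 lost its call without WT replicate 1 (0.62), as Spc24 did (0.58), which also lost it without KO replicate 1 (0.90). Of the other spindle and cytokinesis genes 16 of 34 rose and 2 fell (median 0.52), led by Dlgap5 (1.38), Kif22 (1.13) and Kif18b (1.08). Among other regulators of entry and exit 9 of 20 rose (median 0.20): the largest were the Cdk1-binding Cks2 (1.40) and the kinases Melk (1.29) and Pbk (1.27).

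Of all genes tested 19.9% were called higher and 19.1% lower, and the shares called higher in the APC/C list and in the list of MuvB, E2F and pocket protein genes were near that background. Of 18 genes of the APC/C, its regulators and separase, 4 rose (22.2%) and 1 fell (median 0.07). Those with the largest changes were Fbxo5, the APC/C inhibitor Emi1 (1.52), Ube2s, the E2 enzyme that extends ubiquitin chains (0.82), and Espl1, which encodes separase (0.66). Of 21 condensin and cohesin genes 7 rose (33.3%) and 4 fell (median 0.20). The condensin I subunits Ncapg (1.45), Ncaph (1.22) and Ncapd2 (1.16) had the largest changes among those called. In the list of MuvB, E2F and pocket protein genes 3 of 12 rose (25%) and 2 fell (median 0.13), among them E2f2 (1.20) and Tfdp1 (0.82), which rose, and Tfdp2, which fell (-1.04). Tfdp2 lost its call without KO replicate 2 (-0.56), WT replicate 1 (-1.21) or WT replicate 2 (-0.88), and stood at -1.78 without KO replicate 1.

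Of the genes that act before mitosis, 20 of 38 replication genes rose and none fell (median 0.61). Tk1, thymidine kinase (1.56), Pole, the leading-strand polymerase (1.24), and Uhrf1, which keeps DNA methylation through replication (1.20), had the largest changes. Of the G1/S cyclins and kinases 5 of 9 rose (median 0.50), with Ccnd2 (0.84), Ccne2 (0.82) and the licensing factor Cdt1 (0.75) the largest. Ccne2 lost its call without any 1 of the 4 libraries (0.73 to 0.90), and Cdt1 without WT replicate 1 (0.71) or WT replicate 2 (0.79). Of 5 tested CDK inhibitors Cdkn2b (1.29) and Cdkn1a (0.43) rose, and Cdkn1b, which encodes p27, fell (-0.92). The other 2 had negative changes but were not called, and the median of the list was -0.81. Cdkn1a lost its call without WT replicate 2 (0.33). Of the genes named from the 9 lists, DESeq2 did not call Spc24, Espl1, E2f2, Tfdp2, Ccne2, Cdt1 and Cdkn1a, and library totals did not call Spc24, Ccne2 and Cdkn1a. Of the genes in the 9 lists 14 had listed values in both KO replicates but in neither WT replicate, and none the other way round. Their lower bounds ran from 1.29-fold for Kif14 to 3.39-fold for Zwilch, apart from Cdkn2a, all 3 named after their values were seen. Fewer transcripts were listed in the KO libraries (11794 and 11721) than in the WT libraries (12651 and 12223). How many of all transcripts were listed in 1 genotype alone was not counted, so the 14 genes have no background. Cdkn2a held 58 and 53 footprints in KO and was unlisted in both WT libraries, where an unlisted value is at most 4, so its footprints were at least 15.4-fold higher in KO.

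**Figure D4:**
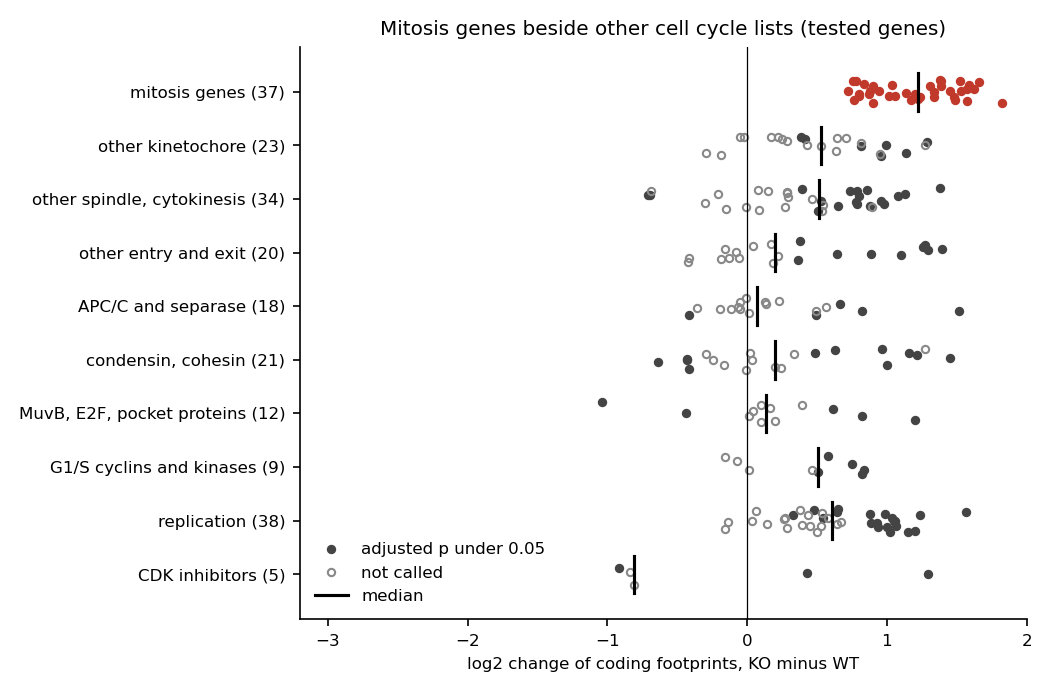
Log2 change of coding footprints (KO minus WT) of each tested gene in the mitosis list and in 9 other cell cycle lists, with the number tested in parentheses; filled points passed an adjusted p of 0.05, open points did not, and bars are medians. All 37 mitosis genes are filled and lie right of 0, while the other lists hold filled and open points and medians from -0.81 (CDK inhibitors) to 0.61 (replication).

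Markers of several cell types moved between the genotypes together with the mitosis genes. The background for counts of called markers is 19.9% of all genes tested called higher in KO and 19.1% lower. The 10 basal keratinocyte markers, all listed in every library, summed to 27040 and 23870 CPM in KO and 15380 and 17270 in WT. Among them 3 rose, including Krt14 (1.84), 3 fell, including Krt15 (-1.72), and the median was 0.01. Krt14 alone held 11230 and 10110 CPM of the basal sum in KO and 2657 and 3296 in WT. Krt15 held 974 and 1262 CPM against 3687 and 3677. The basal sum, and ratios to it, thus depend strongly on single keratins. The 10 suprabasal markers, also all listed, summed to 78550 and 69180 against 30850 and 26940, and 8 of 10 rose. Set against the basal markers, 100 footprints went with 7.53 and 7.99 footprints on mitosis genes in KO and 5.11 and 5.47 in WT, a ratio of 1.47 (exact permutation p = 0.33, the smallest possible). Set against the suprabasal markers, the values were 2.59 and 2.76 in KO and 2.55 and 3.51 in WT, a ratio of 0.884 (exact permutation p = 1.0), and against both lists 1.93 and 2.05 against 1.70 and 2.14, a ratio of 1.04 (exact permutation p = 1.0). The share of mitosis footprints was thus higher in KO among all footprints and beside basal markers, and overlapped between genotypes beside suprabasal markers, which themselves rose. These denominators were chosen after seeing the data.

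The 12 hair matrix and shaft markers, of which 6 to 12 were listed in a library, summed to 4632 and 2246 CPM in KO and 96.1 and 150.1 in WT. These sums lay far apart between the KO libraries. The sums of the 37 mitosis genes were 2004 and 1869 CPM in KO and 781.3 and 932.5 in WT. Of the melanocyte markers 5 of 7 rose and 2 fell, with sums of 439.9 and 254.5 against 82.5 and 107.1. Although the labelled tissue is epidermis, dermal fibroblast markers were present throughout: their share of coding footprints was 8.46% and 12.6% in WT and only 3.96% and 4.51% in KO, with 7 of 10 lower. T cell markers were lower in 4 of 6, sebocyte markers in 7 of 7 and adipocyte markers in 5 of 5. Markers of macrophages and Langerhans cells were lower in 5 of 9, and none of the 5 endothelial markers was called. Beside these counts, 19.1% of all genes tested were called lower in KO and 19.9% higher. S100a8 and S100a9, the only 2 genes of the neutrophil marker list that were tested, rose. Another 2 neutrophil markers went the other way, with values in each WT replicate and none listed in KO. Sums overlapped for the neutrophil markers (58.2 and 19.6 CPM in KO, 13.6 and 23.1 in WT). They also overlapped for the skeletal muscle markers (398.2 and 452.0 against 1310 and 391.6). The part of these shifts in cell type markers in the rise of the mitosis genes was not tested.

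**Figure D5:**
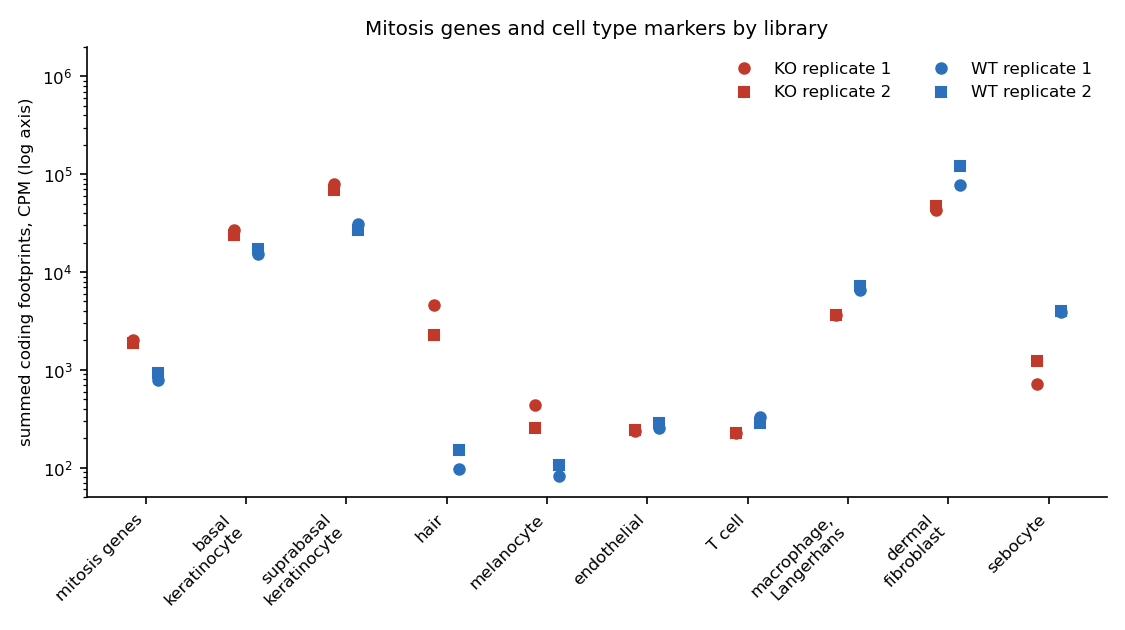
Summed coding footprints (CPM, log axis) of the 37 tested mitosis genes and of 9 marker lists in each library (circles replicate 1, squares replicate 2, red KO, blue WT). Mitosis genes, keratinocyte, hair and melanocyte markers are higher in both KO libraries, and fibroblast, sebocyte, macrophage, T cell and, by a small margin, endothelial markers in both WT libraries.

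Footprints outside the coding region were few on these transcripts. The 5′ UTRs of the 40 genes held 88 and 110 footprints in KO and 39 and 26 in WT. Per 100 coding footprints that is 0.946 and 1.33 in KO and 0.866 and 0.630 in WT (ratio of means 1.52, exact permutation p = 0.33, the smallest possible). All other transcripts listed in every library held 1.54 and 1.78 in KO against 1.11 and 1.01 in WT (ratio 1.57), so the 5′ UTR share of the mitosis genes was lower in each library and its ratio between genotypes close to theirs. Tpx2 (27), Mki67 (24) and Cdca8 (22) held the most 5′ UTR footprints over the 4 libraries, and 10 of the 40 genes held none. Their 3′ UTRs, where ribosomes that pass a stop codon without recycling can be found, held 9 and 14 footprints in KO and 9 and 9 in WT. Per 100 coding footprints that is 0.0967 and 0.169 in KO against 0.200 and 0.218 in WT (exact permutation p = 0.33). For the 37 genes listed in every library, which leaves out 2 footprints on Foxm1 in WT replicate 1, the genotypes overlapped, with 0.0982 and 0.173 in KO against 0.156 and 0.221 in WT (exact permutation p = 0.67). The other transcripts listed in every library held 0.565 and 0.638 against 0.703 and 0.672. Of the 40 genes 23 had no 3′ UTR footprint in any library, so 3′ UTR differences of single mitosis genes were not detectable at this depth.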

How the data were processed

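Ribosome profiling footprints of mouse epidermis were analysed from 2 KO and 2 WT libraries. The values are raw counts of footprints per transcript region, which the authors deposited for 13167 transcripts with mm9 gene annotation, per the file headers and the read-me. Without assigning roles, the submitters' processing notes list the builds mm9 and hg19 and the tools TopHat2 2.0.10, Bowtie2 2.2.6 and CASAVA 1.8; no source used here says how reads shared between genes were counted. Of the 2 deposited tables, described as footprints of 28 to 34 nt and of 20 to 22 nt, the bytes are identical, so the length class is unknown.

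The 11019 transcripts listed in all 4 libraries were filtered to at least 10 counts in at least 2 libraries (10953, called genes here). TMM factors were 0.928 and 0.959 for the KO libraries and 1.085 and 1.035 for WT. Coding counts were compared by edgeR 4.0.16 (quasi-likelihood, Benjamini-Hochberg over all genes, threshold 0.05) in R 4.3.3; the biological coefficient of variation was 11.1%. CPM are normalised to TMM-scaled totals. On simulated counts (10925 genes) 81% of changes of log2 1 and 99% of those of log2 2 were called, and unchanged genes made up 3.23% of all calls. The simulation changed few genes, as many up as down, with the spread between libraries fitted to these data. In the real comparison 39.0% of genes were called, so these rates need not hold for it. An unlisted value is at most the coding length times 0.01. The alternatives tried were library totals, DESeq2 1.42.0, no filter, unlisted counts at 0, the replicate number as a block, whole-transcript counts and leaving out each library. The genes, roles and lists were chosen with earlier results of these data known. Named are all 40 genes, Pelo, and up to 3 called genes with the largest changes (mean of at least 20 counts) per pathway list and up to 2 per marker list; markers were named only where a sentence needs one.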

Additional observations from a re-analysis of the deposited data

How the results depend on the processing

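All 37 tested mitosis genes stayed higher in KO under every alternative run, and none was called lower; calls were 37 with no filter, with the replicate block and with whole-transcript counts, 34 with library totals, 31 with DESeq2 (where Nek2, Aurkb, Ect2, Cenpa, Mad2l1 and Cdca3 were lost), 34 of 40 with unlisted counts at 0 (without Aurkb, Aurka, Ect2, Cdca3, Spag5 and Foxm1), and 31 to 36 without 1 library. Their median ran from 1.08 to 1.34 without 1 library and was 1.06 with library totals and 1.21 with the replicate block. All genes were called lower in 2093 cases, in 1177 with DESeq2 and in 1566 to 1892 without 1 library, and higher in 2184, 1492 and 1703 to 1953. The other cell cycle lists rose in 73 genes, in 48 with library totals, 40 with DESeq2 and 43 to 62 without 1 library (43 without WT replicate 1). They fell in 10, in 17 with library totals, 3 with DESeq2, 5 with unlisted counts at 0 and 4 to 8 without 1 library (6 without KO replicate 2, 5 without WT replicate 1, 4 without WT replicate 2). The ratio of the mitosis genes' share, 2.03, was 1.90 to 2.18 without 1 library. It became 1.47 per footprint on basal keratinocyte markers, 1.04 per footprint on both keratinocyte lists, and turned to 0.884 per footprint on suprabasal markers, denominators added after seeing the data; the cause was not tested. The 5′ UTR ratio was 1.26 to 1.81 and the 3′ UTR ratio 0.463 to 0.810 without 1 library. The replicate numbers pair nothing in the labels, and same-numbered libraries did not deviate together (r = -0.00506 across 10953 genes, which are not independent replicates). Depth limits single genes: 10 of the 40 had fewer than 30 footprints in a library. Unlisted counts at 0 also ended the calls of Ndc80, Spc24, Tfdp2 and Ccne2.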
